A study of Mus musculus with 14 samples.

Results

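Expression of 34 genes of glycolysis and of the response to low oxygen was measured in single cells of lymphoid nodules from 7 mice. The mice carried a deletion, in activated B cells, of Eif3e, a subunit of translation initiation factor eIF3. The genes were taken by symbol from a fixed list, and all 34 were among the 32285 genes in the files. They comprised 4 glucose and lactate transporters, 9 genes of upper glycolysis, 8 of lower glycolysis, the pyruvate dehydrogenase kinase Pdk1, the hypoxia factor Hif1a with 2 oxygen sensors, and 9 hypoxia-inducible genes. Each was followed in the expanded lymphocyte clone of a nodule and in the T cells, macrophages, neutrophils and stromal cells that surrounded it.

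The nodules came from Eif3e fl/fl Cγ1Cre mice (cKO), in which Cre is expressed from the Ighg1 locus and acts in activated B cells. A single white nodule sample per mouse was dissociated, cleared of dead cells and sequenced whole, and a matched V(D)J library gave the receptor sequences. B cell receptors (BCR) were sequenced in mouse 27 (liver, 12 months), mouse 29 (lung, 12 months), mouse 31 (spleen, 13 months), mouse 33 (thymus, 16 months) and mouse 34 (lung and thymus, 9 months). T cell receptors (TCR) were sequenced in mouse 30 (liver, 14 months) and mouse 32 (spleen, 12 months). As the study describes its mice, the mouse 27 nodule had grown in a Rag2-/- recipient of primary tumor cells and the mouse 34 nodule arose in a bone marrow chimera, so the host cells of those nodules differ from the rest. No nodule of a control mouse was among the samples, and every comparison was therefore made between cells of the same nodule, apart from that of T cell with B cell clones, which sets mice against each other.

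Glycolysis splits glucose into pyruvate in the cytosol. Glucose enters through GLUT transporters, is trapped by hexokinase and is split in the upper part of the pathway, and the lower part yields ATP and pyruvate. Lactate dehydrogenase turns pyruvate into lactate, which leaves through monocarboxylate transporters, while pyruvate dehydrogenase kinase keeps pyruvate out of the mitochondria. When oxygen is low, prolyl hydroxylases of the EGLN family no longer mark HIF1α for degradation, and HIF1α then activates many glycolytic genes together with genes such as Vegfa and Bnip3. Lymphocytes also raise glycolysis when they are activated, through MYC and mTORC1, and neutrophils depend on it heavily.

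After filtering, 75503 cells remained, with a median of 1364 to 5319 UMIs (unique molecular identifiers, counts of captured transcripts) per cell in the 7 libraries. Deposited libraries held 19264039 to 123456962 UMIs. Of 72288 barcodes, 3129 occurred in more than 1 library. The clone of each nodule was the set of cells sharing the most frequent heavy or beta chain, or the partner chain most often found with it, and held 323 to 4868 cells per mouse. Bystander T cells were T-like cells outside the clone (394 to 5121 per mouse), taken in the TCR mice only where a different receptor had been read. The kinds of T cell differed between mice. Of 5980 cells in a cluster led by Areg, a share of 0.63 came from mouse 29. Of 6251 cells in a cluster with Gzmk and Cd8b1 among its leading genes, 0.44 came from mouse 33. The part of this mix in the differences below was not tested. Macrophages numbered 104 to 1008 cells in 7 mice, neutrophils 26 to 2151 cells in 6 mice, and stromal cells (fibroblasts and endothelial cells) 49 to 3437 cells in the 5 BCR mice. The 8 B cell markers had a median level of at least 10 CPM (the UMIs of a gene per 1000000 UMIs of its compartment) in the clones, which are B lineage in 5 mice, and all 9 T cell, 12 macrophage and 10 neutrophil markers did so in the compartments named for them. Counts were summed per mouse and compartment, so 1 nodule is 1 replicate, and levels are given in CPM. Eif3e itself was at 142 to 243 CPM in the clones and at 113 to 183 CPM in bystander T cells, and reads from the deleted part of the gene were not separated here. According to the study, tumor B and CD4+ T cells lacked the YFP marker of Cre activity and had normal eIF3e protein. It proposes that lymphocytes with intact eIF3e became malignant.

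Some compartments carried RNA of other cells. In the clone of mouse 32, neutrophil markers summed to 2789 CPM and erythroid markers to 1468 CPM, against medians of 4.95 and 3.73 over all clones. In the stromal cells of mouse 34, B cell markers summed to 1871 CPM (median of the 5 mice, 314). The bystander T cells of mouse 32 had natural killer cell markers that summed to 1970 CPM beside T cell markers at 1890 CPM, against a natural killer median of 140 CPM over the bystander T cells of all mice. Markers of another lineage put an upper bound on free RNA of 49.9% in the mouse 34 stromal cells, 34% in its neutrophils and 32.2% in the mouse 32 clone. UMIs per cell differed as well. A clone cell held a median of 11200 UMIs in the middle mouse against 1939 for a bystander T cell. In the TCR mice 30 and 32 the gap was small, with medians of 1992 and 3805 UMIs in clone cells and 1939 and 3040 in bystander T cells. Clone cells were taken only where a receptor had been read, unlike the bystander T cells of the BCR mice. The gap can therefore not be read as cell size alone. In each mouse, 2017 to 6984 cells belonged to none of the compartments compared. CPM compares shares of a cell's RNA rather than amounts per cell.

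The promoters of 4 genes that carry the differences below are shown because they hold the core of the HIF-binding element, ACGTG, a choice made with the matches known. Windows cover the 250 bases upstream of the RefSeq start on GRCm38.p6, read 5′ to 3′ along the gene, with ACGTG and its complement CACGT in capitals. A run written CACGTG holds both overlapping matches and is also the E-box bound by MYC. The windows lie at chr7:138909507-138909756 on the minus strand (Bnip3, a mitophagy receptor), chr6:82774455-82774704 on the minus strand (Hk2, the inducible hexokinase), chr11:120948817-120949066 on the plus strand (Slc16a3, the lactate exporter MCT4) and chr14:45318573-45318822 on the minus strand (Ero1l, listed by RefSeq as Ero1a, an oxidase of the endoplasmic reticulum).
Bnip3: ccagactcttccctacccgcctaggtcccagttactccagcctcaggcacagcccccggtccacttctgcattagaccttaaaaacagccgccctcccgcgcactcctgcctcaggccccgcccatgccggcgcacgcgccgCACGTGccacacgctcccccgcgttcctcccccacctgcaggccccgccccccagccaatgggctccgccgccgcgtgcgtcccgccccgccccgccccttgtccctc
Hk2: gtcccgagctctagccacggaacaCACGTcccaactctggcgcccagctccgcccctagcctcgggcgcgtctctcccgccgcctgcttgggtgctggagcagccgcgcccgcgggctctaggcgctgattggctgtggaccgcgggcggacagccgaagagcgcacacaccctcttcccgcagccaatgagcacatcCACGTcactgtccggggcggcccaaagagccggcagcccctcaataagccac
Slc16a3: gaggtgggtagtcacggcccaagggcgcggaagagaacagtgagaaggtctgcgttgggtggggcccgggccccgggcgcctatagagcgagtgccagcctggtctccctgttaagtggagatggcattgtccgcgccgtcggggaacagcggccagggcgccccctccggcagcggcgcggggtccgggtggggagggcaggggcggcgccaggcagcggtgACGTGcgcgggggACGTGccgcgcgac
Ero1l: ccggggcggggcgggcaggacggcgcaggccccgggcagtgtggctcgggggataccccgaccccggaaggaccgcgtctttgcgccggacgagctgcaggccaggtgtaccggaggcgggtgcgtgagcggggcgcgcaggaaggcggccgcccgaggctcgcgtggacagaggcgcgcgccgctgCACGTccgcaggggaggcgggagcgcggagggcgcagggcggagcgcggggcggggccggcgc
Of the 34 genes, 32 had a window in the RefSeq table (Slc2a3 and Bnip3l had none). At least 1 match occurred for 19 of these 32 (59.4%) and for 4998 of all 27025 genes (18.5%). A match describes letters, not a bound site. The Adm window held none, which says only that these letters are not in that window.

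**Figure D1:**
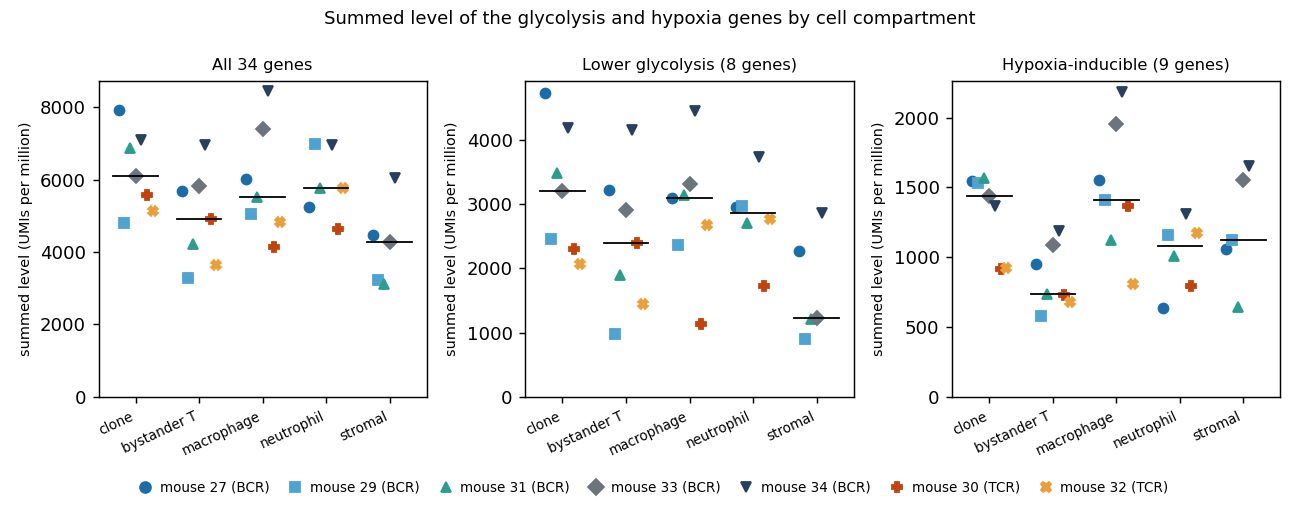
Summed levels of all 34 genes, of the 8 lower glycolysis genes and of the 9 hypoxia-inducible genes, in CPM, by compartment. Each point is 1 mouse and the line is the median. The clones ran from 4810 to 7933 CPM for all 34 genes and overlapped every other compartment.

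The 34 genes together made up 4810 to 7933 CPM of the clones (median 6111, n = 7), 3294 to 6971 CPM of bystander T cells (median 4921, n = 7) and 4153 to 8463 CPM of macrophages (median 5512, n = 7). Neutrophils had 4644 to 6985 CPM (median 5769, n = 6), and the stromal cells of mice 27, 29, 31, 33 and 34 had 4467, 3231, 3115, 4292 and 6044 CPM. All compartments overlapped in this sum. Per cell, the same genes contributed a median of 80.9 UMIs in clones, 29.4 in macrophages, 22.0 in stromal cells, 15.5 in neutrophils and 12.3 in bystander T cells. The clone median is that of B lineage clones (58.1 to 93.6 UMIs). The T clones of mice 30 and 32 had 14.4 and 29.3, against 12.3 and 12.9 in their bystander T cells. These amounts also carry the differences in UMIs per cell and in the choice of cells given above. Hypoxia-inducible genes summed to a median of 1438 CPM in clones and 735 CPM in bystander T cells, whereas the transporters summed to 67.0 and 122 CPM. Much of the former gap was Mif, with medians of 1091 and 401 CPM, which did not pass the test below, and 1 of the 7 hypoxia-inducible genes tested was higher in the clones (median log2 difference of the 7, 0.11). Hypoxia-inducible genes summed to 914 and 924 CPM in the T clones of mice 30 and 32, and to 1367 to 1565 CPM in the B lineage clones. Neutrophils had the highest median of the transporters, 443 CPM. Sums are dominated by abundant genes, among which Gapdh, Aldoa, Ldha, Eno1, Pgk1, Pgam1, Tpi1, Pkm and Mif have processed pseudogenes in the mouse genome, so their counts are uncertain to the extent that reads were shared with such copies.

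The clone was compared with the bystander T cells of the same nodule to ask how the expanded lymphocytes differ in these pathways. Of 31 genes tested, 4 were higher in the clone (Bnip3, Pgam1, Tpi1 and Pgk1) and 2 were lower (Ldhb and Slc2a1), at a Benjamini-Hochberg adjusted p below 0.05 in edgeR's quasi-likelihood test with the mouse as a block. Over all 11690 genes tested, 8.57% were called higher and 9.84% lower, and counts of 4 and 2 among 31 genes are near that background. Ldhb passed the filter on low counts only through the bystander T cells, so its place among the 2 is no separate support. The median log2 difference of the 31 genes was 0.23, against 0.05 over all genes. In the 5 BCR mice the clone is B lineage and the reference T lineage, so clone status and lineage cannot be told apart there. In the 2 TCR mice both sides are cells with a T cell receptor, although those of mouse 32 carried the natural killer markers given above.

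Bnip3 had the largest positive difference of the called genes. It ran from 20.3 to 112 CPM in the clones (median 55.2) and from 6.11 to 20.4 CPM in bystander T cells (median 13.4), 1.96 ± 0.31 (SE) higher on the log2 scale (n = 7, adjusted p = 0.00829). The clone was higher in 7 of 7 mice, including the TCR mice 30 (22.7 against 6.11 CPM) and 32 (55.2 against 17.98 CPM). The ranges touched only at mouse 29, the lowest clone at 20.3 CPM, and mouse 31, the highest T cells at 20.4 CPM. Without mice 27 and 34 the difference was 1.80 (adjusted p = 0.0883).

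The other genes higher in the clone encode 3 enzymes of the trunk of the pathway, and each was higher in 7 of 7 mice. Tpi1, which interconverts the triose phosphates, ran from 114 to 314 CPM (median 170) in clones and from 61.0 to 152 CPM (median 111) in bystander T cells, a log2 difference of 0.84 ± 0.15 (adjusted p = 0.0140). Pgk1, the first ATP-yielding enzyme of the pathway, had medians of 269 and 119 CPM, with ranges of 119 to 386 and 59.5 to 268 CPM, and differed by 0.76 ± 0.21 (adjusted p = 0.0411). Pgam1, which moves the phosphate group of phosphoglycerate, had medians of 164 and 73.8 CPM, with ranges of 83.9 to 277 and 33.4 to 132 CPM, and differed by 0.99 ± 0.26 (adjusted p = 0.0377). The clone and T cell ranges overlapped for each of the 3 genes because the nodules differed more from each other than the cells within a nodule. The call of Pgam1 was lost without mouse 27, 29, 31, 33 or 34 (adjusted p up to 0.0913) and that of Pgk1 without any single mouse but 30 (up to 0.0872), and the call of Tpi1 held without any single mouse.

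The genes that were lower in the clone were an isoenzyme and a transporter. Ldhb, the lactate dehydrogenase subunit of oxidative tissues, was at 0 to 8.41 CPM in clones (median 0.770) and at 4.94 to 35.6 CPM in bystander T cells (median 12.4), lower in 7 of 7 mice. It passed the filter on low counts only through the T cells, so no test is given for it. The 5 B lineage clones had at most 2.01 CPM, and the T clones of mice 30 and 32 had 8.30 and 8.41 CPM against 35.6 and 15.2 CPM in their bystander T cells. Slc2a1, encoding the basal glucose transporter GLUT1, ran from 15.5 to 69.3 CPM in clones (median 24.6) and from 35.4 to 84.3 CPM in T cells (median 52.0), a difference of -0.94 ± 0.23 (adjusted p = 0.0313). It was lower in 6 of 7 clones, the exception being mouse 30 (54.2 against 46.8 CPM). The place of Ldhb among the calls was lost without mouse 27, 29, 33 or 34, and the Slc2a1 call without any of the 5 BCR mice (adjusted p up to 0.0810).

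Several genes at the centre of these pathways did not pass. Ldha, which makes lactate, had medians of 394 CPM in clones and 236 CPM in bystander T cells and was higher in 4 of 7 clones (0.44 ± 0.34, adjusted p = 0.365). Pkm, the last ATP-yielding enzyme, had medians of 323 and 192 CPM and was higher in 6 of 7 clones (0.48 ± 0.19, adjusted p = 0.106). Hif1a had medians of 246 and 542 CPM and was lower in 5 of 7 clones (-0.79 ± 0.36, adjusted p = 0.139). For Hk2, the values were 13.6 to 64.4 CPM in clones and 5.40 to 34.6 CPM in T cells, higher in 6 of 7 mice (1.03 ± 0.35, adjusted p = 0.0700). The cytokine gene Mif was higher in 7 of 7 clones without passing (0.93, adjusted p = 0.0871), and P4ha1, a collagen prolyl hydroxylase, was lower in 7 of 7 without passing (-0.55, adjusted p = 0.0534). Beside these values, a sum of 10 proliferation genes had medians of 920 CPM in clones and 399 CPM in T cells, and a sum of 11 dissociation-stress genes had medians of 2715 and 9743 CPM. Their part in the differences was not tested.

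**Figure D2:**
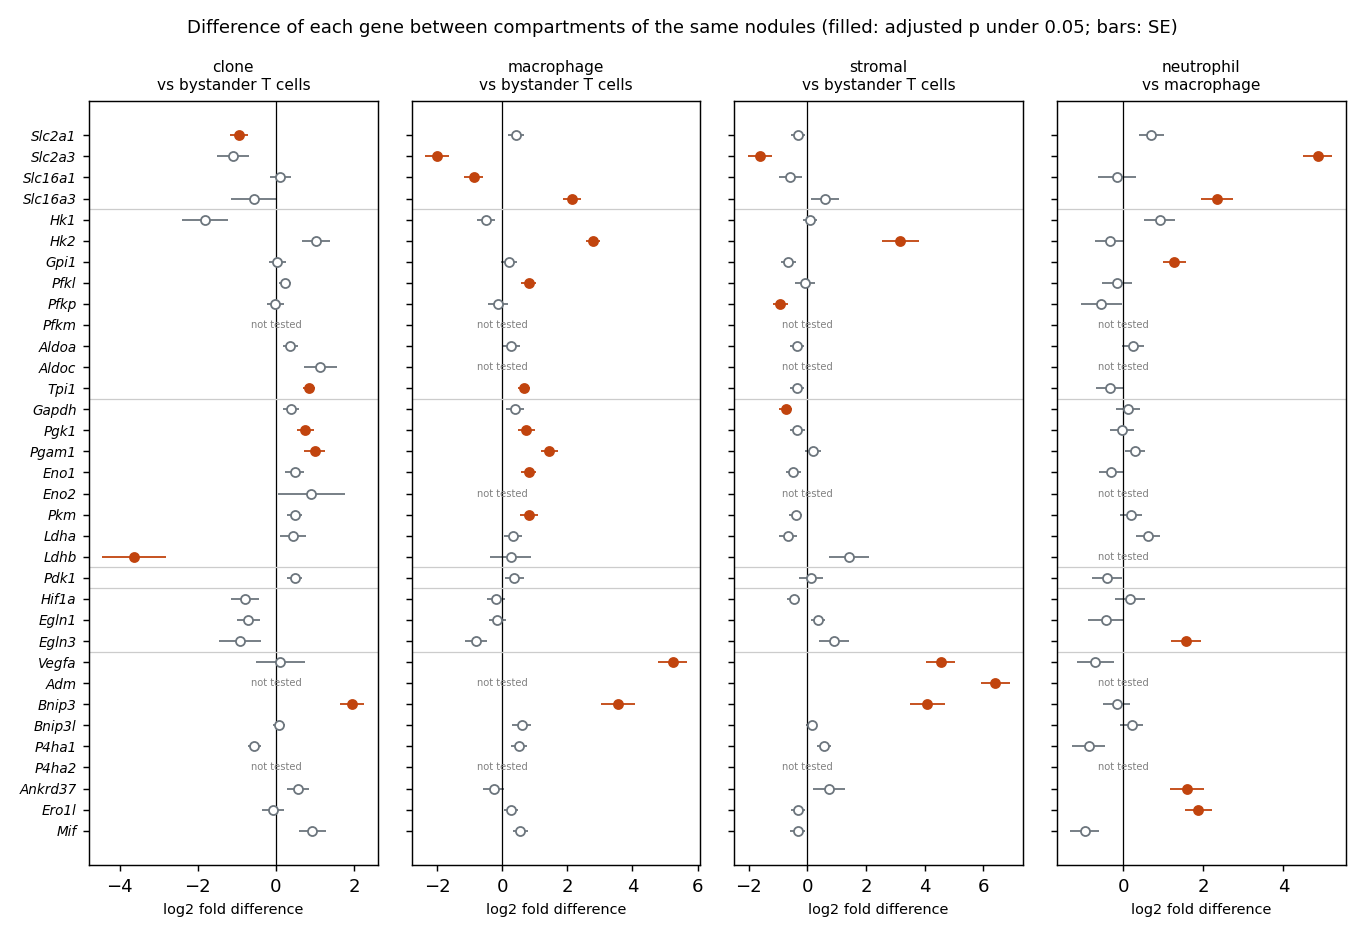
Log2 differences with their standard errors for the 34 genes where tested, in clones, macrophages and stromal cells against bystander T cells and in neutrophils against macrophages. Filled points have an adjusted p below 0.05. Bnip3 lies to the right of 0 in all 3 comparisons with T cells, at 1.96 in clones, 3.56 in macrophages and 4.09 in stromal cells.

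Macrophages were compared with the same bystander T cells to place the clone among the cells of the nodule. Of 29 genes tested, 10 were higher in macrophages and 2 lower, beside 22.9% higher and 20% lower of all 9473 genes tested. Of the genes called higher, Vegfa and Slc16a3 passed the filter on low counts only through the macrophages. The 2 called lower, Slc2a3 and Slc16a1, passed it only through the T cells. The places of these genes in the counts are no separate support. The median log2 difference was 0.39 for the 34 genes and -0.00 for all genes. By group, 4 of 7 genes of lower glycolysis, 3 of 7 of upper glycolysis, 2 of 7 hypoxia-inducible genes and 1 of 4 transporters were higher in macrophages, and 2 of 4 transporters were lower. When the counts were scaled by library size alone, the differences of the 34 genes moved by a median of -0.28 in this comparison, and Tpi1, Pgk1, Eno1, Pkm and Pfkl were no longer called, so 5 of the 10 remained.

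Vegfa, the growth factor of blood vessels, showed the widest gap. It was at 54.6 to 850 CPM in macrophages (median 220) and at 0 to 19.99 CPM in T cells (median 10.1), with no overlap (n = 7). Bnip3 was at 23.7 to 383 CPM in macrophages (median 126), above all T cell values, and differed by 3.56 ± 0.53 (adjusted p = 0.000283). Hk2 was at 36.7 to 134 CPM in macrophages (median 66.0) and 5.40 to 34.6 CPM in T cells (median 8.34), a difference of 2.79 ± 0.22 (adjusted p = 3.12e-06). Slc16a3 was at 13.9 to 29.4 CPM in macrophages (median 16.4) and 1.65 to 9.00 CPM in T cells (median 5.62). Bnip3, Hk2 and Pgam1 (1.45 ± 0.27, adjusted p = 0.0013) were each higher in 7 of 7 mice and stayed called under every alternative that was run. Vegfa and Slc16a3 were also higher in 7 of 7 mice. Both passed the filter on low counts only through the macrophages, so no test is given for them.

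The further enzymes were higher by less than 1 log2 unit. Pkm had medians of 357 CPM in macrophages and 192 CPM in T cells (0.83 ± 0.28, adjusted p = 0.0316), with overlapping ranges of 120 to 516 and 93.6 to 459 CPM. Eno1 (0.81), the phosphofructokinase subunit Pfkl (0.81), Pgk1 (0.74) and Tpi1 (0.67) had adjusted p values between 0.0125 and 0.0391. The calls of Pkm and Pgk1 were lost without mouse 29, 31, 32, 33 or 34, that of Eno1 without 31 or 33 and that of Tpi1 without 33 or 34 (adjusted p up to 0.0930). Against this direction, the high-affinity glucose transporter gene Slc2a3 (GLUT3) was at 2.60 to 23.7 CPM in macrophages (median 4.70) and 21 to 53.9 CPM in T cells (median 31.3), lower in 7 of 7 mice. Slc16a1, encoding the widely expressed lactate transporter MCT1, was at 3.64 to 19.0 CPM in macrophages (median 12.5) and 14.2 to 32.4 CPM in T cells (median 25.4), also lower in 7 of 7. Its place among the calls was lost without mouse 27, 31, 33 or 34. Slc2a3 and Slc16a1 passed the filter on low counts only through the T cells, so no test is given for them. Hif1a (medians 388 and 542 CPM, -0.19, adjusted p = 0.595), Ldha (357 and 236 CPM, 0.33, adjusted p = 0.363) and Slc2a1 (63.0 and 52.0 CPM, 0.42, adjusted p = 0.181) did not pass.

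**Figure D3:**
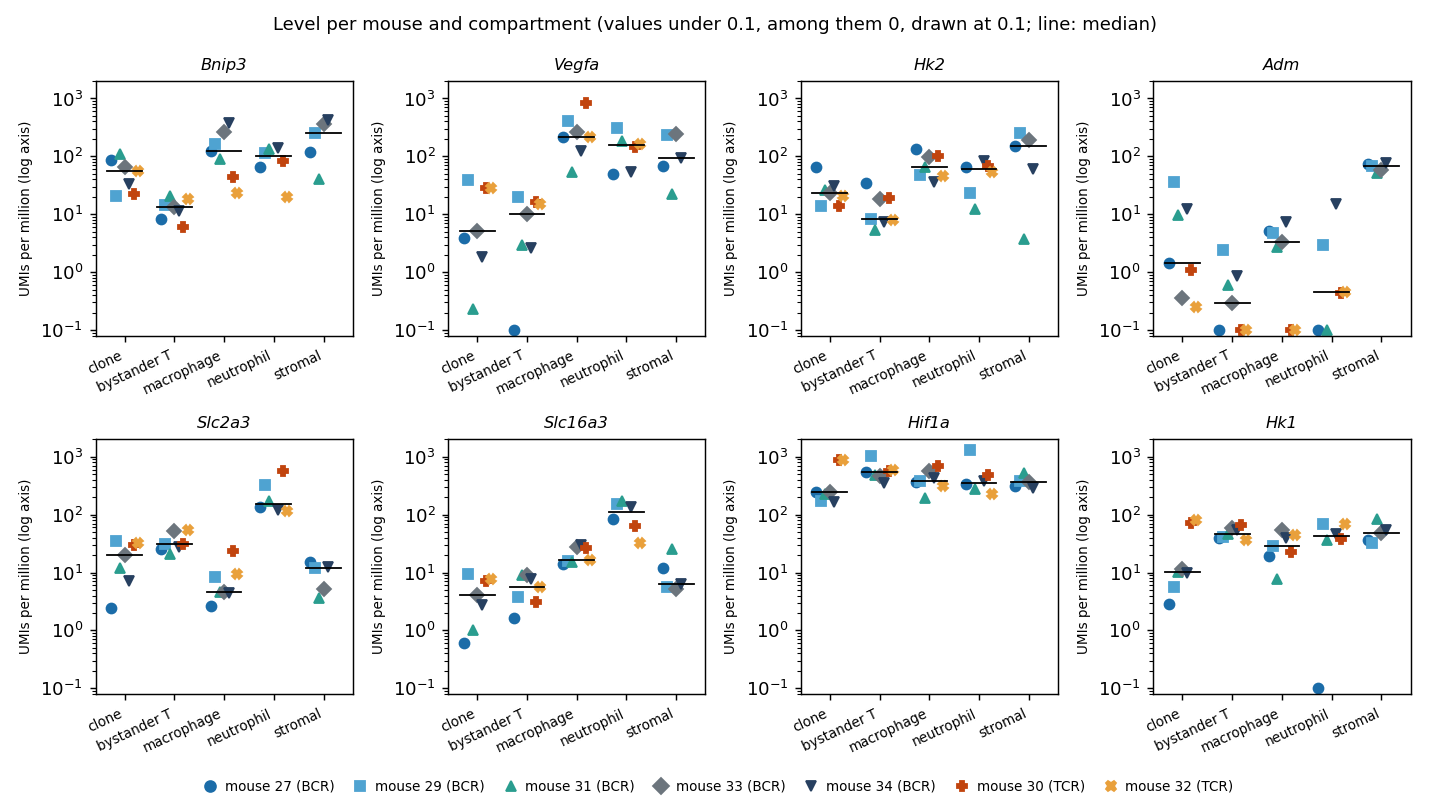
Levels of 8 genes in CPM on a log axis, by compartment and mouse, with values under 0.1 drawn at 0.1 and the line at the median. Adm stands apart in stromal cells (51.8 to 76.8 CPM) and Slc2a3 in neutrophils (115 to 563 CPM). Vegfa in macrophages (54.6 to 850 CPM) lies above all clones and bystander T cells but overlaps stromal cells.

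Stromal cells, which build the scaffold and vessels of a nodule, were set against the same bystander T cells. In the 5 BCR mice, 4 of 30 genes tested were higher in stromal cells than in bystander T cells (Adm, Vegfa, Bnip3 and Hk2) and 3 were lower (Slc2a3, Pfkp and Gapdh), beside 20.4% higher and 15.4% lower of 9987 genes. Adm passed the filter on low counts only through the stromal cells, so its place among the 4 is no separate support. Slc2a3 passed it only through the T cells, so its place among the 3 is no separate support either. The median log2 difference was -0.20 for the 34 genes and -0.04 for all genes. Of the hypoxia-inducible genes, 3 of 8 tested were higher and none lower, and of lower glycolysis 1 of 7 was lower and none higher.

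Adm, encoding the vasodilator peptide adrenomedullin, was at 74.7, 68.3, 51.8, 57.1 and 76.8 CPM in the stromal cells of mice 27, 29, 31, 33 and 34 and at 0, 2.44, 0.600, 0.296 and 0.867 CPM in their T cells. All 5 stromal values lay above all T cell values. Vegfa was at 68.8, 237, 22.2, 245 and 94.1 CPM in the same order, against at most 19.99 CPM in T cells (4.54 ± 0.48, adjusted p = 0.00018). Bnip3 was at 120, 258, 40.7, 358 and 422 CPM, against at most 20.4 CPM in T cells (4.09 ± 0.60, adjusted p = 0.000966). For both genes the lowest stromal value was that of mouse 31, whose stromal sample was 45 endothelial and 4 fibroblast cells. Endothelial cells were also the majority in mouse 27 (49 of 68 cells) and mouse 34 (66 of 102 cells). Hk2 was at 152, 249, 3.70, 195 and 59.6 CPM in the stromal cells of the 5 mice and 34.6, 8.34, 5.40, 17.98 and 7.22 CPM in T cells, higher in 4 of 5 mice (3.16 ± 0.62, adjusted p = 0.00467). Fibroblasts of the 3 mice with enough of them had 85.0 to 275 CPM of Hk2 and endothelial cells of 5 mice 0 to 165 CPM (median 27.7), and with endothelial cells alone the difference no longer passed (adjusted p = 0.0858).

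Of the genes lower in stromal cells, Slc2a3 was at 14.9, 12.1, 3.70, 5.30 and 12.5 CPM, below every T cell value (21 to 52.0 CPM in these mice). No test is given for it, because it passed the filter through the T cells. Pfkp, the platelet-type phosphofructokinase, was at 32.9, 34.5, 44.4, 98.3 and 59.6 CPM in stromal cells and 105, 95.8, 104, 126 and 85.5 CPM in T cells (-0.93 ± 0.26, adjusted p = 0.0238). Gapdh, the dehydrogenase at the start of the lower part, was at 960, 323, 507, 400 and 1495 CPM in stromal cells and 1555, 458, 897, 1225 and 2057 CPM in T cells (-0.74 ± 0.23, adjusted p = 0.0357). Each of these 3 genes was lower in 5 of 5 mice, but the Pfkp call was lost without mouse 27, 29 or 31 (adjusted p up to 0.0684) and the Gapdh call without mouse 27, 31, 33 or 34 (up to 0.157). Ldha was at 323, 131, 159, 172 and 251 CPM in stromal cells and at 113 to 565 CPM in the T cells of these mice, a difference that did not pass (-0.65, adjusted p = 0.121). Hif1a (-0.46, adjusted p = 0.138), Pkm (-0.40, adjusted p = 0.184) and Slc2a1 (-0.32, adjusted p = 0.329) did not pass either. Dissociation-stress genes summed to a median of 21902 CPM in stromal cells and proliferation genes to 144 CPM. Their part in these differences was not tested.

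Set directly against macrophages, the clone was higher in 3 of 32 genes tested and lower in 5, beside 19.9% higher and 17.8% lower of 11199 genes. The median log2 difference was -0.25 for the 34 genes and 0.14 for all genes, and with library sizes alone the 34 genes moved by a median of 0.19. Vegfa was at 0.227 to 39.5 CPM in clones (median 5.12), below every macrophage value. Slc16a3 was at 0.605 to 9.49 CPM in clones (median 4.15), also without overlap. Both genes passed the filter on low counts only through the macrophages. Their places among the 5 are therefore no separate support, and no test is given for them. Hk2 had a clone median of 23.4 CPM against 66.0 CPM and was lower in 7 of 7 clones (-1.70 ± 0.31, adjusted p = 0.00419), although the highest clone, mouse 27 at 64.4 CPM, exceeded the lowest macrophages at 36.7 CPM. The Hk2 difference held under every alternative.

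The clone also had less Slc2a1 (-1.31 ± 0.30, adjusted p = 0.0111) and less P4ha1 (-1.01 ± 0.25, adjusted p = 0.0147) than macrophages, each lower in 6 of 7 mice, the latter not passing without mouse 27 (adjusted p = 0.0570). Genes higher in the clone were Slc2a3 (medians 19.9 and 4.70 CPM, 1.10 ± 0.35, adjusted p = 0.0350), Slc16a1 (26.1 and 12.5 CPM, 1.10 ± 0.38, adjusted p = 0.0492) and Ankrd37 (16.8 and 7.52 CPM, 0.94 ± 0.28, adjusted p = 0.0275), a small ankyrin-repeat gene induced by hypoxia. Each of these calls was lost without single mice, of Slc2a3 without mouse 29, 31, 32 or 33 (adjusted p up to 0.110), of Slc16a1 without any mouse but 30 (up to 0.148) and of Ankrd37 without mouse 29, 31 or 33 (up to 0.0705). None of the 8 lower glycolysis genes passed in either direction, among them Ldha (0.20, adjusted p = 0.417) and Pkm (-0.27, adjusted p = 0.299). Bnip3 (-1.40, adjusted p = 0.0927) and Hif1a (-0.54, adjusted p = 0.247) did not pass. Of 11 dissociation-stress genes, 10 were lower in clones than in macrophages, and 6 of 10 proliferation genes were higher. Their part in these differences was not tested.

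Neutrophils were compared with the macrophages of the same nodule. In neutrophils of 6 mice, 6 of 28 genes tested were higher than in macrophages and 0 were lower, beside 7.93% higher and 8.77% lower of 8630 genes. Among all genes, 1419 were lower at an unadjusted p below 0.05, and DESeq2 called 1 of the 34 genes lower. Slc2a3 passed the filter on low counts only through the neutrophils, so its place among the 6 is no separate support. The median log2 difference was 0.14 for the 34 genes and -0.08 for all genes.

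Slc2a3 was at 115 to 563 CPM in neutrophils (median 153) and 2.60 to 23.7 CPM in the macrophages of these mice (median 6.38), higher in 6 of 6 mice without overlap. No test is given for it, because it passed the filter only through the neutrophils. The lactate exporter gene Slc16a3 was at 32.2 to 172 CPM in neutrophils (median 111) and 13.9 to 29.4 CPM in macrophages, again without overlap (2.35 ± 0.39, adjusted p = 0.000653). Neutrophils had the highest level of a glucose importer and of a lactate exporter among the 5 compartments by median. Ero1l was at 66.8 to 404 CPM in neutrophils (median 227) and 48.5 to 79.3 CPM in the macrophages of these mice (1.87 ± 0.33, adjusted p = 0.00099, higher in 6 of 6). Gpi1, the second enzyme of glycolysis, was at 222 to 481 CPM in neutrophils (median 281) and 62.4 to 228 CPM in macrophages (1.27 ± 0.29, adjusted p = 0.00624, higher in 6 of 6).

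The oxygen sensor gene Egln3, itself induced by HIF, was at 12.3 to 91.7 CPM in neutrophils (median 40.6) and 6.33 to 28.6 CPM in macrophages (1.56 ± 0.38, adjusted p = 0.00969, higher in 6 of 6). Ankrd37 was at 3.67 to 36.9 CPM in neutrophils (median 28.5) and 2.50 to 14.7 CPM in macrophages (1.59 ± 0.44, adjusted p = 0.0200, higher in 5 of 6). Mouse 32 was the exception, with 3.67 CPM in neutrophils and 3.69 CPM in macrophages, and the call was lost without mouse 27, 29, 30 or 31 (adjusted p up to 0.142). Hif1a (0.17, adjusted p = 0.818), Vegfa (-0.70, adjusted p = 0.320) Pkm (0.20, adjusted p = 0.682) and Slc2a1 (0.69, adjusted p = 0.142) did not pass, nor did Ldha, which was higher in 6 of 6 mice (0.62, adjusted p = 0.172). The kind of neutrophil differed between mice. Most in mouse 32 (1119 cells) fell in a cluster with Camp, Ngp and Elane among its leading genes. Most in mouse 29 (1943 cells) fell in one led by Cxcl3 and Retnlg, and most in mouse 30 (576 cells) in one led by Slfn4. Proliferation genes summed to 1525 CPM in neutrophils of mouse 32 and 115 CPM in mouse 29. Their part in the differences was not tested. Neutrophil samples of mice 27, 31 and 34 were sums of 26, 39 and 41 cells. With at least 50 cells required, 3 mice remained and 3 of the 6 genes no longer passed, namely Slc16a3, Gpi1 and Ankrd37 (adjusted p = 0.108, 0.0756 and 0.218).

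T cell clones were compared with B cell clones as the difference between clone and bystander T cells in the 2 TCR mice minus that in the 5 BCR mice. Of 33 genes tested, 1 was higher and 0 were lower, beside 1.64% and 0.345% of 14502 genes. At an unadjusted p below 0.05, 1594 and 660 of all genes differed in the respective directions, and DESeq2 called 2 of the 34 genes higher and 0 lower. The gene was Hk1, the constitutive hexokinase, at 70.8 and 81.0 CPM in the T clones and 2.86, 5.64, 10.3, 11.7 and 9.65 CPM in the B clones of mice 27, 29, 31, 33 and 34. Bystander T cells were at 66.1 and 36.0 CPM in the TCR mice and at 38.7 to 58.3 CPM in the BCR mice. All B clones lay below all T cell samples, clonal or not, and the log2 difference of differences was 3.12 ± 0.57 (adjusted p = 0.0341). It no longer passed without mouse 34, 30 or 32 (adjusted p up to 0.285).

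Hif1a had the next pattern of this kind by level. The T clones were at 894 and 866 CPM and the B clones at 164 to 248 CPM, while bystander T cells ranged from 348 to 1028 CPM in all 7 mice. The T clones exceeded their own bystander T cells (564 and 593 CPM), and all 5 B clones were below theirs. The interaction did not pass (1.75 ± 0.48, adjusted p = 0.122), and neither did those of Slc2a1 (1.06, adjusted p = 0.215), Ero1l (1.30, adjusted p = 0.172), Ldhb (3.09 ± 1.19, adjusted p = 0.259), Ldha (-0.21, adjusted p = 0.934) and Pkm (-0.23, adjusted p = 0.861). The scale of library sizes alone moved the 34 genes by a median of 0.21 here. With 2 TCR mice, large differences could also be missed.

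**Figure D4:**
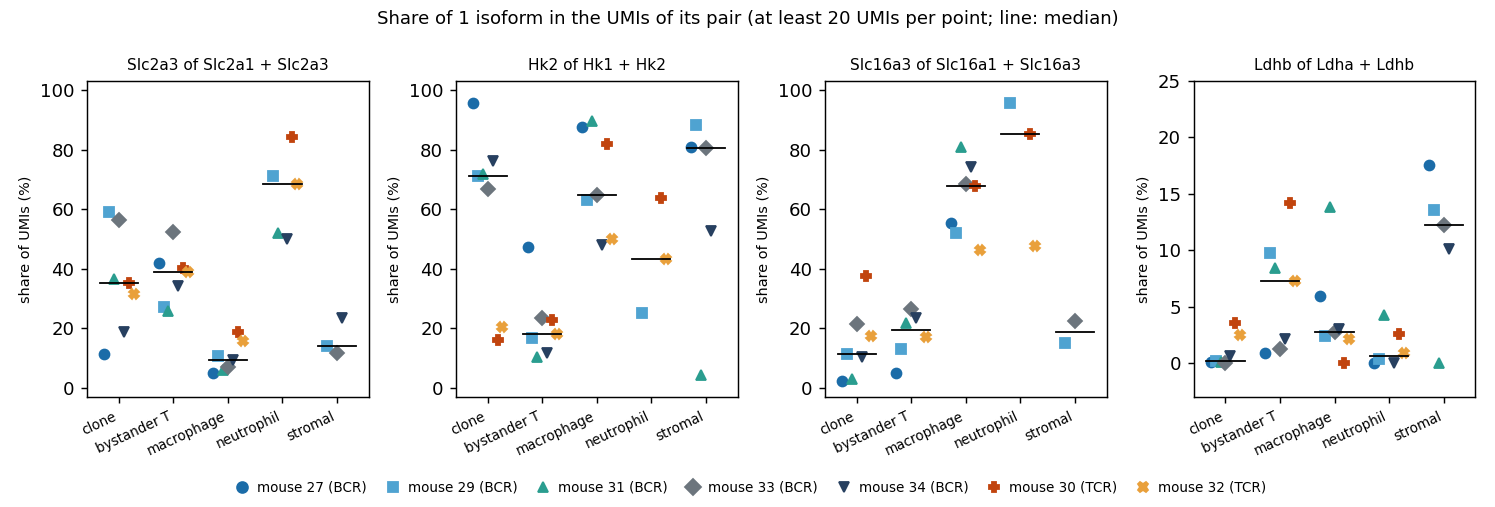
Share of Slc2a3, Hk2, Slc16a3 and Ldhb in the UMIs of the isoenzyme pair each belongs to, in percent, by compartment and mouse, where the pair had at least 20 UMIs. The Hk2 share was 66.7% or more in the 5 B clones and 16.2% and 20.3% in the 2 T clones.

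The share of each isoenzyme in the UMIs of its family was described without a test. UMIs are not scaled for transcript length, so shares are compared between cells and not read as proportions of protein. Among hexokinases, Hk2 took 95.7%, 71.1%, 71.7%, 66.7% and 76.1% of UMIs in the B clones of mice 27, 29, 31, 33 and 34, and 16.2% and 20.3% in the T clones of mice 30 and 32. Bystander T cells had 10.3% to 47.2% (median 17.9%), so both T clones lay within the range of non-clonal T cells and all B clones lay above it. Macrophages had 48.1% to 89.5% (median 64.7%). Stromal cells had 81.0%, 88.3%, 4.17%, 80.4% and 52.8%, the low value being that of mouse 31, which rests on 24 UMIs.

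Glucose transporter use separated the myeloid cells. Slc2a3 took 50% to 84.1% of the UMIs of Slc2a1 and Slc2a3 in neutrophils of 5 mice (median 68.4%) and 4.84% to 18.8% in macrophages (median 9.38%). Lymphocytes lay between, with 11.5% to 59.1% in clones (median 35.1%) and 25.9% to 52.4% in bystander T cells (median 39.0%). Of the monocarboxylate transporters, Slc16a3 took a median of 11.3% in clones, 19.3% in T cells, 67.7% in macrophages and 85.1% in neutrophils, the last from only 3 mice with a range of 47.8% to 95.6% that overlapped that of macrophages. Clone values of 2.27% to 37.5% did not overlap macrophage values of 46.3% to 81.0%. Ldhb took 0% to 3.55% of lactate dehydrogenase UMIs in clones (median 0.169%), 0.890% to 14.2% in T cells (median 7.28%) and 0% to 17.6% in stromal cells (median 12.3%). Pfkp made up a median of 83.2% of phosphofructokinase UMIs in clones, 84.2% in T cells and 70.8% in macrophages. Aldoa and Eno1 supplied nearly all UMIs of their families in every compartment, at least 98.4% for Aldoa and 94.2% for Eno1.

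Within the clones, cells were divided by proliferation genes. Clone cells were thinned to 2000 UMIs, and cells with at least 2 UMIs of the 10 proliferation genes (52 to 1237 per mouse) were compared with cells that had 0 (239 to 3144 per mouse). Of 31 genes tested, 4 were higher in cycling cells (Slc16a1, Ldha, Mif and Tpi1) and 5 were lower (Eno2, Egln3, P4ha1, Hif1a and Bnip3l), beside 12.7% higher and 13.6% lower of 11085 genes. The median log2 difference was -0.10 for the 34 genes and -0.07 for all genes. The cycling calls come from the same RNA counts, although none of the 34 genes was used for them.

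Ldha was at 330 to 642 CPM in cycling cells (median 447) and 250 to 508 CPM in non-cycling cells (median 346), higher in 7 of 7 mice by 0.36 ± 0.07 (adjusted p = 0.00469). Mif was at medians of 1203 and 970 CPM, also higher in 7 of 7 (0.35 ± 0.08, adjusted p = 0.00643). Tpi1 (0.25 ± 0.08, adjusted p = 0.0378) and the lactate transporter Slc16a1 (0.53 ± 0.16, adjusted p = 0.0356, higher in 6 of 7) passed with less margin, the call of Tpi1 being lost without any mouse but 32 (adjusted p up to 0.163) and that of Slc16a1 without mouse 29, 30, 31, 32 or 33 (up to 0.124). These differences between cells of the same clone were smaller than the spread between mice, and their ranges overlapped.

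The 5 genes lower in cycling cells came from several groups. Hif1a and Egln3 of the 3 sensing genes were lower and Egln1 was not (-0.01, adjusted p = 0.987), and of 8 hypoxia-inducible genes P4ha1 and Bnip3l were lower and Mif was higher. P4ha1 was at 31.3 to 91.2 CPM in cycling cells (median 50.8) and 55.3 to 111 CPM in non-cycling cells (median 69.5), lower in 7 of 7 mice by -0.60 ± 0.11 (adjusted p = 0.00262). Hif1a was at 148 to 629 CPM (median 232) and 171 to 998 CPM (median 250), lower in 7 of 7 (-0.37 ± 0.12, adjusted p = 0.0468), which was lost without mouse 29, 30, 31 or 33 (up to 0.101). Egln3 (-0.61 ± 0.15, adjusted p = 0.0131, lower in 6 of 7, and 0.0531 without mouse 31), the mitophagy receptor gene Bnip3l (-0.33 ± 0.08, adjusted p = 0.00916) and the enolase Eno2 (-1.09 ± 0.21, adjusted p = 0.00337) were lower as well, the latter from medians of only 1.94 and 4.22 CPM. Slc2a1 (-0.44, adjusted p = 0.0780) and Pkm (-0.05, adjusted p = 0.753) did not pass. Of 11 dissociation-stress genes, 9 were also lower in cycling cells, and their part in these differences was not tested.

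**Figure D5:**
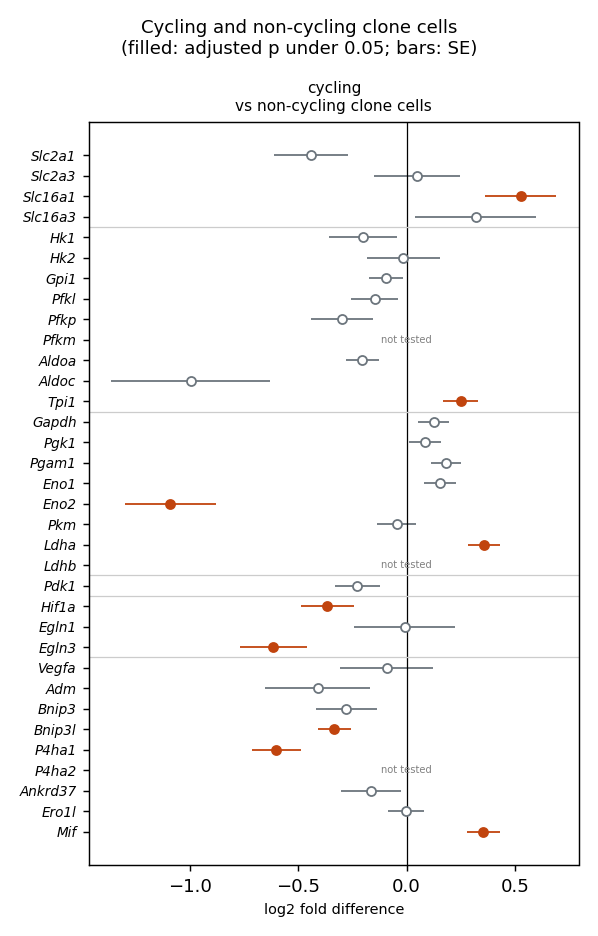
Log2 differences with standard errors between cycling and non-cycling clone cells for the genes tested, with filled points for an adjusted p below 0.05. Ldha, Mif, Tpi1 and Slc16a1 lie to the right of 0 and Eno2, Egln3, P4ha1, Hif1a and Bnip3l to the left.

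Several genes were too scarce for most tests. Pfkm, the muscle phosphofructokinase, was tested only between T and B clones. P4ha2, a collagen prolyl hydroxylase, was never tested. Its levels were 2.99 to 34.7 CPM in stromal cells and at most 0.863 CPM in the T cells of the same mice. Aldoc and Eno2, the brain-type aldolase and enolase, were left out of all comparisons of macrophages or stromal cells with T cells and of neutrophils with macrophages. Adm was tested where stromal or B clone cells raised it above the filter, and reached 35.7 CPM in the clone of mouse 29 against 0.253 to 12.5 CPM in the other clones. Pdk1, the pyruvate gate, passed in none of the 7 comparisons, with medians of 14.5 to 30.5 CPM in the 5 compartments. Egln1, the main oxygen sensor, also passed in none.

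Genes of the same and adjoining pathways outside the 34 were counted from fixed lists. Between clones and bystander T cells, 8.57% of all genes were called higher and 9.84% lower. Of 10 other glycolysis genes, 1 was lower and none higher (Bpgm, -1.16). Of 21 other hypoxia genes, 5 were lower and none higher, among them Epas1 (-3.85) and Bhlhe40 (-2.53). Pdgfb, also among the 5, had mean levels of 0.543 CPM in clones and 8.43 CPM in T cells. It passed the filter on low counts through the T cells, so no test is given for it. Of 23 genes of pyruvate entry and the TCA cycle, 5 were higher and none lower (Pdhx 1.27, Suclg1 1.02 and Idh3g 0.71 the most). Pgd, an oxidative enzyme of the pentose phosphate pathway, was higher (0.87 ± 0.22, adjusted p = 0.0338), the only call among 7 genes of that pathway. In macrophages against T cells, 22.9% of all genes were called higher and 20% lower. Of 6 other glycolysis genes, 4 were higher and 1 was lower (Bpgm, -1.73, adjusted p = 0.000138). Those higher included the phosphofructokinase regulators Pfkfb3 (1.53) and Pfkfb4 and the transporter gene Slc2a6. Pfkfb4 and Slc2a6 had mean levels of 12.4 and 13.3 CPM in macrophages and 2.88 and 2.62 CPM in T cells. Both were scarce in T cells, so no test is given for them. Of the pentose phosphate genes, 5 of 7 were higher, led by Pgd (2.02), Taldo1 (1.99) and G6pdx (1.59). Other hypoxia genes went both ways there, with 7 of 20 higher (among them Plod1, mean levels of 25.9 and 3.38 CPM) and 6 lower (Epas1 -3.67).

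In stromal cells against T cells, 7 of 21 other hypoxia genes were higher and 2 lower, beside 20.4% and 15.4% of all genes. Among those higher were Lox (mean levels of 95.5 and 1.38 CPM) and Plod1 (30.9 and 2.44 CPM). They encode enzymes that modify collagen and are also known as matrix genes of fibroblasts. Pdk4, a pyruvate dehydrogenase kinase, had mean levels of 76.6 CPM in stromal cells and 0.457 CPM in T cells. Lox, Plod1 and Pdk4 passed the filter on low counts through the stromal cells, so no test is given for them. Between clones and macrophages, 19.9% of all genes were called higher in clones and 17.8% lower. Clones had less of 5 of 12 other glycolysis genes, among them Slc16a7 and Hk3 (mean clone levels of 0.268 and 1.29 CPM). They had more of 1, Pfkfb1 (mean levels of 3.45 CPM in clones and 0.90 CPM in macrophages). The clones had less of 5 of 20 other hypoxia genes, among them Plod1 (mean clone level of 3.175 CPM) and Hilpda (-3.03). They had more of 2, Plod2 (mean macrophage level of 2.64 CPM) and Kdm4b (0.81). Slc16a7, Hk3 and Plod1 were scarce in clones, and Pfkfb1 and Plod2 in macrophages, so no test is given for them. Neutrophils exceeded macrophages in Pfkfb4 (1.79 ± 0.37, adjusted p = 0.00287) and in Hk3 (1.37 ± 0.42, adjusted p = 0.0375), the hexokinase of myeloid cells. In cycling clone cells, 8 of 20 other hypoxia genes were lower and 1 was higher, beside 13.6% and 12.7% of all genes. Fh1 (0.59 ± 0.13, adjusted p = 0.00703) and Sdhb (0.28 ± 0.09, adjusted p = 0.0476) of the TCA cycle were higher. No gene of these lists passed between T and B clones.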

How the data were processed

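Single-cell RNA libraries and V(D)J libraries of 7 nodules were analysed. The deposited matrices hold raw UMI counts per gene and called cell, and the V(D)J tables of the authors hold receptor contigs with UMI counts, made with SeekSoulTools. The labels name the builds GRCm38 and mm10, while the aligner, annotation and cell calling of the RNA matrices were not given in the sources used here. The labels name a 5′ kit and the methods a 3′ kit for RNA, and which end was read was not settled. Cells with at least 201 UMIs, at least 101 genes and at most 10% mitochondrial UMIs were kept. Clusters were made with scanpy 1.11.5 (2000 variable genes, 30 components, 15 neighbors, Leiden resolution 1), without the 34 genes and the pathway lists, and a cluster was named from at least 3 markers. Doublets were not removed in the main result, and cells of 2 lineages or with high Scrublet scores were left out as alternatives. Raw counts were summed per mouse and compartment of at least 20 cells and tested with edgeR 4.0.16 (R 4.3.3, filterByExpr, TMM, quasi-likelihood F test, mouse as block, Benjamini-Hochberg adjustment over all genes tested, threshold 0.05). The SE was taken from the log2 difference and the F statistic. The mouse pairs the samples because all compartments of a mouse come from the same nodule. Each mouse is 1 animal, and p-values weigh the difference within a nodule against how much that difference varies between mice.

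The 34 genes, the lists and the rules were chosen with earlier results of these data known. Genes past the threshold were named, up to 6 per direction and comparison with their levels or differences, further ones by their difference alone, and Hif1a, Ldha, Pkm and Slc2a1 in any case. Of the other lists, the 3 genes with the largest differences were eligible, and 1 gene that is counted there is not reported by name here. Alternatives were library sizes without TMM, DESeq2 1.42.0, no filter on low counts, no block, leaving out each mouse, leaving out mice 27 and 34, subtraction of free RNA, cells thinned to 1000 UMIs, other definitions of the compartments, and a first naming rule of the clusters, which was dropped after the data were seen because it left a cluster of T cells unnamed. The model was tested on simulated counts. Promoter windows came from the RefSeq table for GRCm38.p6.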

Additional observations from a re-analysis of the deposited data

Results flagged for a closer look

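Dixon's test was applied to each named gene in each compartment with 5 to 7 mice, and 16 of 110 tests passed its 95% critical value, where chance passes about 1 in 20. In the clones, mouse 29 stood apart with 35.7 CPM of Adm (next 12.5) and 74.6 CPM of Slc16a1 (next 37.0), and mouse 27 with 64.4 CPM of Hk2 (next 30.7). The clone of mouse 29 was also the smallest, at 323 cells. In bystander T cells, mouse 29 had the highest Hif1a, 1028 CPM (next 593), and the highest Adm, 2.44 CPM (next 0.867), and mouse 30 had the lowest Slc16a1, 14.2 CPM (next 25).

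In macrophages, the high values were Ero1l in mouse 33 at 122 CPM (next 79.3), Ldhb in mouse 31 at 59.1 CPM (next 22.5) and Slc2a3 in mouse 30 at 23.7 CPM (next 9.49). In neutrophils they were Adm in mouse 34 at 15.3 CPM (next 2.99), Hif1a in mouse 29 at 1297 CPM (next 474), Ldhb in mouse 31 at 24.6 CPM (next 4.77), and Slc16a1 and Tpi1 in mouse 32 at 35.2 CPM (next 11.3) and 241 CPM (next 107). The Adm and Ldhb values of neutrophils rest on 41 and 39 cells. In stromal cells, mouse 34 had 87.8 CPM of Ankrd37 (next 17.1) and mouse 33 had 144 CPM of Egln3 (next 57.6).

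The clone against bystander T cell difference of Hk1 was larger in the TCR mice than in the BCR mice by 3.12 on the log2 scale (edgeR interaction term, adjusted p = 0.0341).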

How the results depend on the processing

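Of 897 single-gene values under alternatives, 704 kept direction and side of the threshold, 192 kept direction without passing and 1 changed sign, Slc2a3 with all myeloid cells summed against T cells (0.57, adjusted p = 0.62). Of 49 called differences, 13 stayed called throughout. The cause of each change below was not tested.

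Genes called higher and lower in clones against T cells numbered 4 and 2. They were 7 and 6 with DESeq2, 1 and 0 without the mouse block, 0 and 0 without mice 27 and 34, 2 and 0 with free RNA subtracted, 1 and 1 under the first naming rule, and 8 and 4 with T cells lacking a TCR call included. Genes called lower were 1 without a filter, thinned or with clones of their own lineage class, and 4 in 1 fit over all compartments. Leaving out single mice gave 2 to 6 and 0 to 4.

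Macrophages against T cells had 10 and 2. Higher calls were 5 with library sizes alone or the first naming rule and 6 without mice 27 and 34. Lower calls were 1 with free RNA subtracted or thinned cells and 0 with myeloid cells summed. Leaving out mice gave 6 to 12 and 1 to 2. Stromal cells had 4 and 3. Higher calls were 7 without a filter or with fibroblasts alone. Lower calls were 1 without the block, without mice 27 and 34 or under the first naming rule, and 0 with fibroblasts alone. Leaving out mice gave 4 to 6 and 1 to 5.

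Clones against macrophages had 3 and 5. Higher calls were 1 without the block, without mice 27 and 34, without cells of 2 lineages, without high Scrublet scores or with free RNA subtracted, and 0 thinned. Lower calls were 8 with DESeq2 and 3 without mice 27 and 34 or thinned. Leaving out mice gave 0 to 3 and 4 to 8. Neutrophils had 6 and 0. Higher calls were 3 with free RNA subtracted, thinned or at least 50 cells. Lower calls were 1 with library sizes alone, DESeq2 or no filter and 3 in 1 fit over all compartments. Leaving out mice gave 5 to 6 and 0 to 1.

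T against B clones had 1 higher, 2 with DESeq2 and 0 without the block, without mice 27 and 34 or with free RNA subtracted, and 0 to 1 without single mice. Cycling cells had 4 and 5, 0 and 0 without the block, 2 higher without cells of 2 lineages, and 2 to 3 and 3 to 7 without single mice. Without the block the spread between nodules enters the error of these comparisons. Sums of 26 to 41 neutrophils and 49 stromal cells limit what those samples can show.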

Other observations

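Some groups of cells lay outside the comparisons or cut across the compartments compared, and their values are single sums with counting error only. In mouse 27, 670 cells of a B-like cluster led by Igkv3-12 and Ighv1-75 had 12132 CPM of the 34 genes, against 7860 CPM in 1733 clone cells outside it, and Gapdh was at 4474 against 2681 CPM. These cells were shallower, with a median of 2166 UMIs against 9456. In mouse 33, 877 cells of an unnamed cluster led by Iglv2, with markers of both B and plasma cells, had 9367 CPM, against 5744 CPM in 925 clone cells outside it (median 4461 and 14891 UMIs). B-like cells with a receptor other than that of the clone were few, at 32, 41, 23 and 24 cells in mice 29, 31, 33 and 34, and had 1968, 2483, 4055 and 5679 CPM of the 34 genes, below the clone of the same mouse (4810, 6884, 6111 and 7114 CPM) in 4 of 4.

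Erythroid-like cells of mouse 32 (3774 cells, 3679 CPM of the 34 genes) had 142 CPM of Hk1 and 25.8 CPM of Pfkm. Epithelial-like cells of mouse 29 (434 cells, 2996 CPM) had 128 CPM of Ldhb and 287 CPM of Bnip3. Most macrophages fell into 2 clusters, led by Gpnmb and by C1qa. In mouse 29 their sums of the 34 genes were 4987 CPM (988 cells) and 7585 CPM (27 cells), and in mouse 33 they were 3940 CPM (74 cells) and 7732 CPM (864 cells). In the same order, Hk2 was at 46.6 and 108 CPM in mouse 29 and at 26.2 and 106 CPM in mouse 33.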
